A study of Mus musculus with 12 samples.

Results

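The core circadian clock genes of the liver were described across 12 mouse livers treated with valproic acid, with or without obeticholic acid. The set held 10 genes (Arntl, Clock, Npas2, Per1, Per2, Per3, Cry1, Nr1d1, Nr1d2 and Dbp), chosen by name from the 34986 genes of the authors' table, and all 10 were found and passed the filter on low values. They were chosen with it known that several of them divide the livers by replicate number, so that division is described here without a test.

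Livers came from female C57BL/6 mice aged 16 weeks, with 6 mice given valproic acid (VPA) and 6 given VPA together with obeticholic acid (VPA_OCA). Valproic acid is an antiepileptic and histone deacetylase inhibitor with known liver toxicity. Obeticholic acid is a synthetic bile acid and an agonist of FXR, the nuclear receptor for bile acids, and the series asks what FXR does in liver injury by valproic acid. Every mouse received VPA, mice without it were not analysed here, and the labels used here name no dose, no duration and no time of day.

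In the clock, the transcription factors encoded by Arntl and by Clock or Npas2 pair, bind E-box sequences and switch on the Per, Cry, Nr1d1, Nr1d2 and Dbp genes. PER and CRY proteins then block that pair, the REV-ERB receptors encoded by Nr1d1 and Nr1d2 repress Arntl, Npas2 and Cry1, and DBP drives genes through D-boxes. In mouse liver, Arntl and Npas2 transcripts are known to peak near dawn, Nr1d1 and then Dbp and Per3 by day, Per1 and Per2 near dusk, and Cry1 in the night.

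These 4 promoter windows are printed because they belong to the 2 genes whose livers divided most clearly by replicate number (Nr1d1 and Cry1), to the gene with the smallest p for the treatment (Per3) and to the activator gene Arntl. Each runs from 250 bases before to 50 bases after a RefSeq transcript start in GRCm38.p6, 5′ to 3′ on the gene's strand, and 9 of the 10 genes had a window. The capitals mark letters searched on both strands. They include the E-box CACGTG, which the activators bind, and its variant form with the letters CACGTT, written on the opposite strand as AACGTG in the windows below. The D-box was searched as TTATGTAA and as TTACGTAA. The element bound by ROR and REV-ERB receptors was searched by its core, with the letters TAGGTCA in its common form and the letters TGGGTCA in a related form.
Nr1d1 (chr11:98775328-98775627, minus strand): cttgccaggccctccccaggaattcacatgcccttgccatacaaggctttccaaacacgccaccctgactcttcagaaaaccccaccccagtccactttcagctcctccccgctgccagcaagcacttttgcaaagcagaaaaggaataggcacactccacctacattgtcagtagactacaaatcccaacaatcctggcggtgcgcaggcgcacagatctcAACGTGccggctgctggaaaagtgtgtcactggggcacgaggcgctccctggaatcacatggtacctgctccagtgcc
Cry1 (chr10:85185005-85185304, minus strand): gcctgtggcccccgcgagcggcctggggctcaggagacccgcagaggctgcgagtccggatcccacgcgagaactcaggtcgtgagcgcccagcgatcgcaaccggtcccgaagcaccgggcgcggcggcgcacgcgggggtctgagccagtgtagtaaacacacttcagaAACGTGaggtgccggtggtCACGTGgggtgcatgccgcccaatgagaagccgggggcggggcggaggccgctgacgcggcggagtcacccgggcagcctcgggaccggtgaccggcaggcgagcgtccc
Per3 (chr4:151044616-151044915, minus strand): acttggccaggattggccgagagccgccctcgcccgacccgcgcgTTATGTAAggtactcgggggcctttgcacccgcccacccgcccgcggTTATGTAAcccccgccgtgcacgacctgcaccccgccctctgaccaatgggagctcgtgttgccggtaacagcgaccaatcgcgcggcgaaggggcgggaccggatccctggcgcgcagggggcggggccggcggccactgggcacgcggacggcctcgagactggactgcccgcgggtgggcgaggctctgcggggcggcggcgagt
Arntl (chr7:113207261-113207560, plus strand): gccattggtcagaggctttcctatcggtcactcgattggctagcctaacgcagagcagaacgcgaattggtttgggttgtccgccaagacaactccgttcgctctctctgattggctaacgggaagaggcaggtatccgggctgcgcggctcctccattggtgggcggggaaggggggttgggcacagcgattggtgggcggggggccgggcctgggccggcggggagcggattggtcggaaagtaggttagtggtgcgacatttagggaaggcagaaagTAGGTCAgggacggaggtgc
The Nr1d1 window held the E-box variant at -28 to -23 from the transcript start. Cry1 held CACGTG at -60 to -55 and the variant at -79 to -74, and Per3 held D-box letters at -205 to -198 and at -158 to -151. Of 2 windows each, Arntl held the receptor core at 30 to 36 in the one printed and Per1 held CACGTG at -166 to -161 in one, and their other windows held none of the letters. Windows of Clock, Npas2, Nr1d2 and Dbp held none of these letters, and Per2 has no entry. Among 32851 RefSeq windows of the same length, 7.15% held CACGTG, 4.68% held its variant, 1.06% held D-box letters and 6.45% held the receptor core, so a match is a description of the letters and not a binding site.

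The values were the authors' normalized counts, which summed to between 20236900 and 22087711 per liver. As a check of the tissue, the 6 hepatocyte markers summed to 2047920 to 3418764 normalized counts per liver, so the samples held hepatocyte RNA. Mitochondrial transcripts made up 9.09% to 11.7% of the total in livers numbered 1 to 3 of either treatment and 5.84% to 7.51% in those numbered 4 to 6. The labels used here do not say what the numbers stand for, and their sets cannot be told apart from anything else that differed between them.

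None of the 10 clock genes passed the test for an effect of obeticholic acid. In the comparison of VPA_OCA with VPA by limma with Benjamini-Hochberg adjustment over all genes, 0 of 10 had an adjusted p under 0.05, beside 0.721% of all 19006 genes tested (84 higher and 53 lower). At an unadjusted p under 0.05 the count was also 0 of 10, beside 9.55% of all genes, and the ranges of the 2 treatments overlapped for every one of the 10, beside 1.44% of all genes whose ranges did not. With a term for the replicate number sets, 0 of 10 passed, beside 2.13% of all genes, and 1 of 10 (Per3) had an unadjusted p under 0.05, beside 14.5%. Over the 10 genes the median log2 fold change was 0.04, with 4 of 10 negative, and over all genes tested it was -0.00050. These tests measure the spread between mice. In the fit without a term for the number sets, that spread also holds the difference between the sets. In whole liver, fewer cells of a type and less RNA per cell cannot be told apart.

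By replicate number, the livers divided for a pair of clock genes at opposite ends of the daily cycle. Nr1d1 was higher and Cry1 lower in every liver numbered 4 to 6 than in any numbered 1 to 3, and the other 8 genes overlapped between the sets. That is 1 gene of 10 above and 1 below, beside 5.65% of all genes above and 4.97% below (10.6% in all), counts from which nothing is read because the genes were chosen with the division known. Over the 10 genes the median log2 difference between the sets was -0.11, with 4 of 10 positive, against -0.02 over all genes tested.

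**Figure D1:**
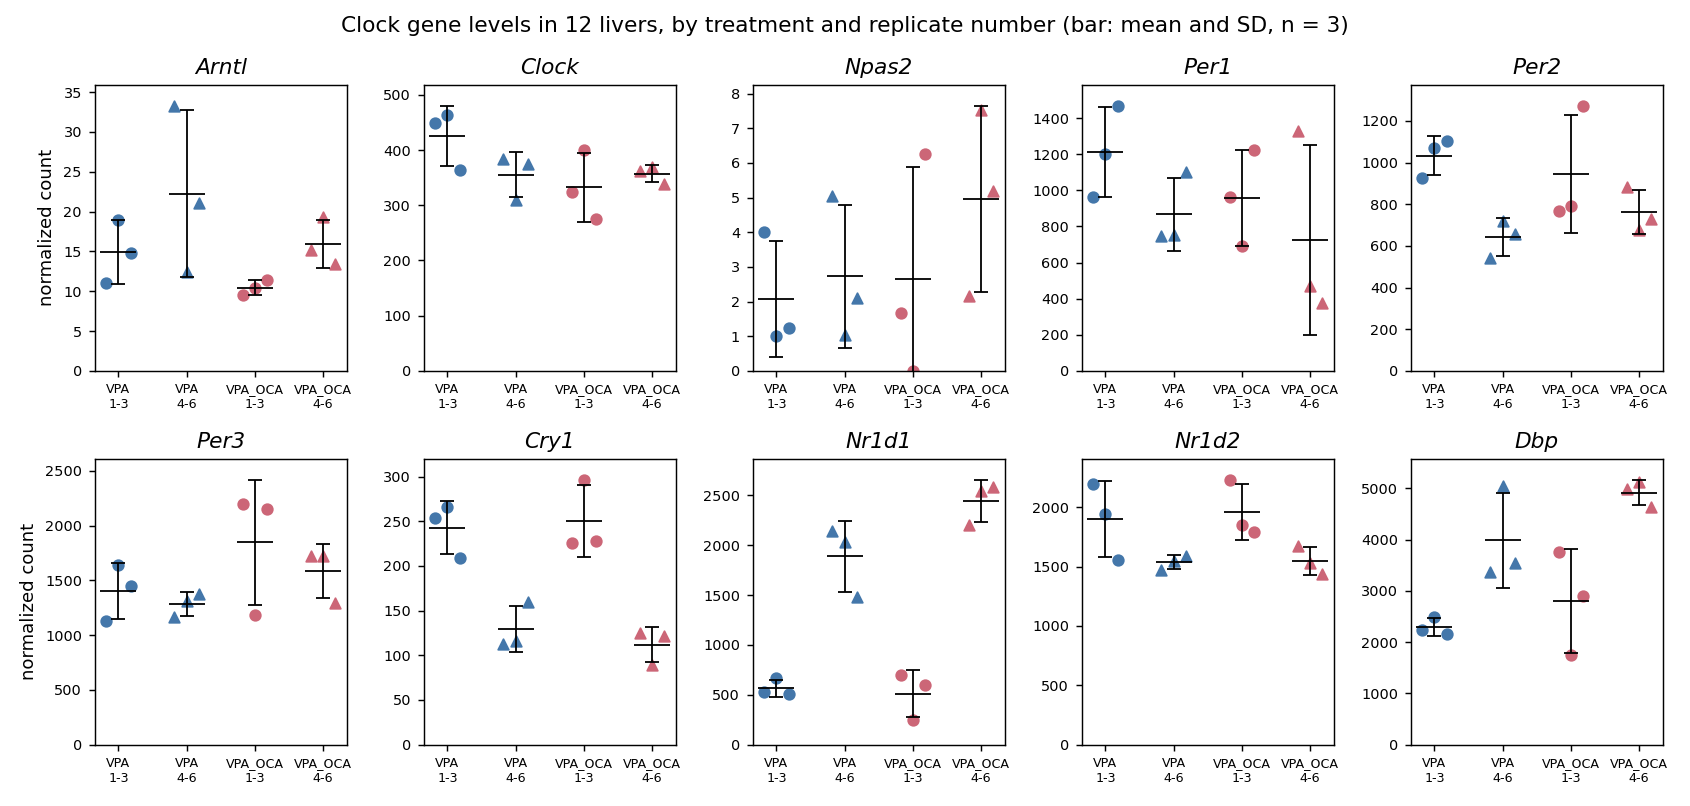
Normalized counts of the 10 clock genes in each of 12 livers, by treatment (VPA blue, VPA_OCA red) and replicate number (circles 1 to 3, triangles 4 to 6), with the mean and SD of 3 livers as bars; each vertical axis starts at 0. For Nr1d1 all triangles lie above all circles (1486 to 2586 against 244 to 698.5), and for Cry1 all lie below (89.1 to 159 against 209 to 296). Over all 12 livers the 2 colours separate in no gene. Among the triangles alone they separate for Nr1d1 (VPA 1486 to 2142, VPA_OCA 2200 to 2586).

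The activator genes were the least abundant of the set per length, as given further on in FPKM. Arntl (ENSMUSG00000055116, chromosome 7, 113207465 to 113314126, plus strand), which encodes BMAL1, had 11.0, 19.0 and 14.8 normalized counts in VPA livers 1 to 3 and 33.3, 12.5 and 21.1 in VPA livers 4 to 6. In VPA_OCA it had 9.51, 10.4 and 11.5 in livers 1 to 3 and 15.2, 19.3 and 13.5 in livers 4 to 6. The highest level was in VPA replicate 4 and the lowest in VPA_OCA replicate 1, and both the treatments and the number sets overlapped. For VPA_OCA over VPA the log2 fold change was -0.41 ± 0.27 (SE; 6 against 6 livers; limma adjusted p = 0.72), with a 95% interval of -0.99 to 0.17. Between livers 4 to 6 and 1 to 3 the difference in mean log2 level was 0.48 within VPA and 0.56 within VPA_OCA. Counts this low leave Arntl imprecise, and the authors' deposited table does not mark Arntl or Npas2 as present.

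Clock (ENSMUSG00000029238, chromosome 5, 76209868 to 76304792, minus strand), the histone acetyltransferase partner of BMAL1, ranged from 309 to 464 normalized counts in VPA (median 379) and from 275 to 399 in VPA_OCA (median 351). Its log2 fold change by treatment was -0.17 ± 0.12 (SE, limma adjusted p = 0.72), with an interval of -0.42 to 0.08, so a change beyond 0.42 in size lay outside it. Among livers 1 to 3 alone, Clock averaged 425 ± 54.4 in VPA and 333 ± 62.6 in VPA_OCA (SD, n = 3 each; log2 fold change -0.36; limma unadjusted p = 0.0476, adjusted p = 0.40). Among livers 4 to 6 the means were 355 ± 40.6 and 357 ± 15.8. The difference of the treatment effect between the sets was 0.37 on the log2 scale and did not pass (limma adjusted p = 0.65). Between the number sets Clock differed by -0.26 within VPA and 0.12 within VPA_OCA, so it had no common direction.

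Npas2 (ENSMUSG00000026077, chromosome 1, 39193731 to 39363236, plus strand), which encodes the relative of CLOCK that also pairs with BMAL1, was near the limit of detection. It had 1 to 5.04 normalized counts in VPA and 0 to 7.52 in VPA_OCA, and 0 in VPA_OCA replicate 2. Its log2 fold change by treatment was 0.32 with an interval of -0.76 to 1.40, too wide to read a direction from.

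Among the repressor genes, Per1 (ENSMUSG00000020893, chromosome 11, 69095217 to 69109960, plus strand), an immediate target of the activators and of glucocorticoid signals, varied widely within groups. Its lowest, median and highest normalized counts were 749, 1033 and 1467 in VPA and 378, 828 and 1331 in VPA_OCA. Per1 stood at 469 and 378 in VPA_OCA replicates 5 and 6, below every VPA liver, and at 1331 in VPA_OCA replicate 4. The log2 fold change by treatment was -0.41 ± 0.28 (SE, limma adjusted p = 0.73; interval -1.01 to 0.20). Between the number sets it was -0.49 within VPA and -0.60 within VPA_OCA, with overlap in each.

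Per2 (ENSMUSG00000055866, chromosome 1, 91415982 to 91459324, minus strand), a core PER repressor, had 925, 1072 and 1103 normalized counts in VPA livers 1 to 3 and 542, 721 and 659 in VPA livers 4 to 6. Within VPA the sets did not overlap, with a difference of -0.69 on the log2 scale. In VPA_OCA it had 767, 794 and 1271 in livers 1 to 3 and 882, 675 and 731 in livers 4 to 6, which overlapped, with a difference of -0.28. Over both treatments the sets overlapped only through VPA_OCA replicate 4. The high value was that of VPA_OCA replicate 3. By treatment the log2 fold change was 0.04 ± 0.19 (SE, limma adjusted p = 0.98), with an interval of -0.35 to 0.44.

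Per3 (ENSMUSG00000028957, chromosome 4, 151003652 to 151044665, minus strand), a PER relative whose promoter window above holds D-box letters at 2 places, had the smallest treatment p of the set. It had 1132, 1639, 1448, 1165, 1315 and 1372 normalized counts in VPA replicates 1 to 6. In VPA_OCA replicates 1 to 6 it had 2199, 1187, 2152, 1725, 1722 and 1297. In all, 4 VPA_OCA livers lay above the highest VPA liver, while replicates 2 and 6 lay within the VPA range. The means were 1345 ± 188 and 1714 ± 419 (SD, n = 6 each). The log2 fold change, a 1.25-fold difference of mean log2 levels, was 0.32 ± 0.15 (SE; limma unadjusted p = 0.0502, adjusted p = 0.52; interval -0.00037 to 0.65) and did not pass. With a term for the number sets the unadjusted p was 0.037 and the adjusted p 0.31 by limma. In the authors' deposited table the p for Per3 is 0.00969 and its adjusted p is 0.109. Among livers 4 to 6 alone the log2 fold change of Per3 was 0.29 (limma unadjusted p = 0.0428, adjusted p = 0.41), with overlap of the treatments. Among livers 1 to 3 alone it was 0.35 (limma unadjusted p = 0.14, adjusted p = 0.56). Per3 differed little between the number sets, by -0.12 within VPA and -0.18 within VPA_OCA.

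Cry1 (ENSMUSG00000020038, chromosome 10, 85131700 to 85185064, minus strand), the cryptochrome repressor with a late phase, had 254, 266 and 209 normalized counts in VPA livers 1 to 3 and 113, 116 and 159 in VPA livers 4 to 6. In VPA_OCA it had 226, 296 and 228 in livers 1 to 3 and 124, 89.1 and 121 in livers 4 to 6. Every liver numbered 4 to 6 was below every liver numbered 1 to 3, whatever the treatment. The mean was 247 ± 31.9 in livers 1 to 3 and 121 ± 22.7 in livers 4 to 6 (SD, n = 6 each), 2.05-fold lower by mean log2 levels, with log2 differences of -0.91 within VPA and -1.16 within VPA_OCA. By treatment the log2 fold change was -0.09 ± 0.30 (SE, limma adjusted p = 0.97), with an interval of -0.72 to 0.55.

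Nr1d1 (ENSMUSG00000020889, chromosome 11, 98767932 to 98775333, minus strand), which encodes REV-ERBα, the main repressor of Arntl, separated the sets most. It had 523, 666 and 504 normalized counts in VPA livers 1 to 3 and 2142, 2038 and 1486 in VPA livers 4 to 6. In VPA_OCA it had 698.5, 244 and 595 in livers 1 to 3 and 2200, 2547 and 2586 in livers 4 to 6. The gap between the sets, from 698.5 to 1486, held no liver. The mean was 539 ± 163 in livers 1 to 3 and 2166.5 ± 401 in livers 4 to 6 (SD, n = 6 each), and the mean log2 levels differed 4.16-fold. The log2 difference was 1.73 within VPA and 2.38 within VPA_OCA, and over both it ranked 25 of 19006 genes in size. By treatment the log2 fold change was 0.06 ± 0.57 (SE, limma adjusted p = 0.99), with an interval of -1.15 to 1.28 that spans changes of more than 2-fold in both directions. That fit has no term for the number sets, so their difference counts as spread in the interval. With such a term the fold change was again 0.06 (limma adjusted p = 0.94).

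Within livers 4 to 6, Nr1d1 was higher in all 3 VPA_OCA livers (2444 ± 212.5) than in all 3 VPA livers (1889 ± 353; SD), the 1 clock gene of 10 whose treatments did not overlap there, beside 16.8% of all genes. The log2 fold change was 0.39 (limma unadjusted p = 0.0213, adjusted p = 0.33), which did not pass. Within livers 1 to 3 it was -0.26 (adjusted p = 0.78), and 0 of 10 clock genes separated the treatments there, beside 18.6% of all genes. The difference of the treatment effect between the sets was 0.65 ± 0.40 (SE, limma adjusted p = 0.70). For that difference 0 of 10 passed at an adjusted p under 0.05, beside 0.0105% of all genes. The count was also 0 of 10 at an unadjusted p under 0.05, for which no share of all genes was computed.

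Nr1d2 (ENSMUSG00000021775, chromosome 14, 18204054 to 18239127, minus strand), which encodes REV-ERBβ, did not follow its paralog. It ranged from 1560 to 2232 normalized counts in livers 1 to 3 and from 1440 to 1677 in livers 4 to 6, overlapping only through VPA replicate 3, and differed by -0.29 within VPA and -0.33 within VPA_OCA. By treatment its log2 fold change was 0.03 ± 0.12 (SE, limma adjusted p = 0.97), with an interval of -0.23 to 0.29. Clock and Nr1d2 had the narrowest intervals of the set for obeticholic acid.

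Dbp (ENSMUSG00000059824, chromosome 7, 45705088 to 45710203, plus strand), the D-box activator that carries clock output to metabolic genes, had 2228, 2500 and 2153 normalized counts in VPA livers 1 to 3 and 3364, 5054 and 3539 in VPA livers 4 to 6. In VPA_OCA it had 3769, 1754 and 2892 in livers 1 to 3 and 4986, 5127 and 4644 in livers 4 to 6. Within each treatment the sets did not overlap, with log2 differences of 0.78 and 0.88, and over both treatments they overlapped only through VPA_OCA replicate 1. The mean was 2549 ± 707 in livers 1 to 3 and 4452 ± 795 in livers 4 to 6 (SD, n = 6 each). By treatment the log2 fold change was 0.28 ± 0.26 (SE, limma adjusted p = 0.83; interval -0.28 to 0.83). With a term for the number sets the adjusted p was 0.42 by limma. In the authors' deposited table Dbp has a p of 0.0323 and an adjusted p of 0.212.

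**Figure D2:**
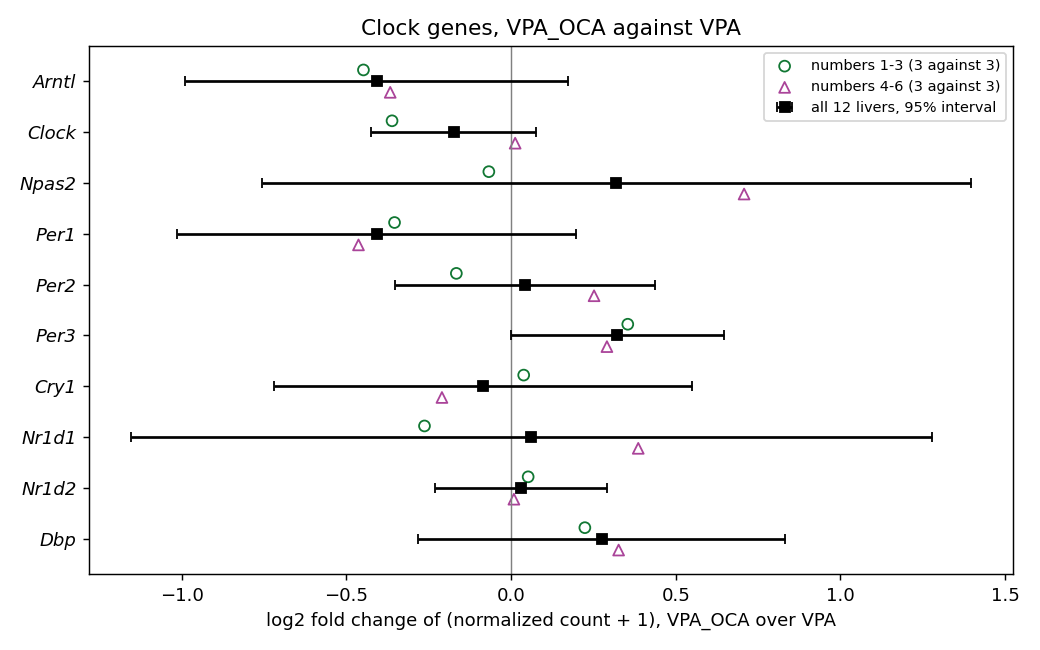
Log2 fold change of (normalized count + 1), VPA_OCA over VPA, for the 10 clock genes: squares with 95% limma intervals for all 12 livers, open circles for livers numbered 1 to 3 and open triangles for those numbered 4 to 6. Every interval includes 0, from the widest for Nr1d1 (-1.15 to 1.28) to that of Per3, which starts at -0.00037.

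Between genes, levels are compared per length, as the authors' FPKM over the 12 livers. Dbp was the highest at 121 ± 42.4 FPKM (SD, n = 12), followed by Nr1d2 at 41.9 ± 6.65 and Nr1d1 at 36.3 ± 24.2. Per3 (17.1 ± 4.36), Per2 (13.1 ± 3.47), Per1 (12.7 ± 4.59) and Cry1 (8.36 ± 3.24) came next. Per2 and Per1 did not differ beyond their spread. Nr1d1 and Nr1d2 also overlapped, and they changed order with the number set, since Nr1d1 had 14.5 FPKM in livers 1 to 3 and 58.0 in livers 4 to 6 while Nr1d2 had 46.7 and 37.2. Clock stood at 3.52 ± 0.523, Arntl at 0.285 ± 0.122 and Npas2 at 0.0845 ± 0.0665 FPKM. The activators were thus the lowest and Dbp, their target, the highest.

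The relations among the clock genes can be set against their textbook phases. In livers 4 to 6 the day genes Nr1d1 and Dbp were higher, and the dusk and night genes Per1, Per2 and Cry1 had lower means. Arntl and Npas2, which peak near dawn, had higher means in livers 4 to 6 (19.1 ± 7.69 against 12.7 ± 3.57, and 3.84 ± 2.47 against 2.36 ± 2.33 normalized counts; SD, n = 6). Per3, Nr1d2 and Clock moved by 0.31 or less in log2 size. So among genes that share a daytime phase, Nr1d1 and Dbp went one way and Nr1d2 slightly the other (-0.31, with overlap). The difference of Per3 (-0.15) was smaller than its pooled SD within treatment and set (0.32), so no direction is read for it.

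Ratios between pairs of clock genes within a liver barely depend on the scaling between livers. The log2 difference of Nr1d1 minus Cry1 ran from -0.28 to 1.62 in livers 1 to 3 and from 3.22 to 4.82 in livers 4 to 6, with means of 1.06 ± 0.68 and 4.15 ± 0.53 (SD, n = 6 each). The means lay 3.10 log2 units apart, and the lowest value was that of VPA_OCA replicate 2. For Nr1d1 minus Nr1d2 the ranges were -2.92 to -1.54 and -0.10 to 0.84, and for Nr1d1 minus Per2 they were -1.70 to -0.14 and 1.17 to 1.98. Dbp minus Per3, a pair of day genes, ran from 0.43 to 0.98 in livers 1 to 3 and from 1.37 to 1.94 in livers 4 to 6. Dbp minus Cry1 ran from 2.56 to 4.05 and from 4.47 to 5.83. These 5 ratios separated the sets in both treatments. Dbp minus Nr1d1 was smaller in livers 4 to 6 (0.65 to 1.31) than in livers 1 to 3 (1.91 to 2.84), so Nr1d1 differed by more than Dbp did. The ratios of Per1 to Per2, of Per2 to Cry1 and of Clock to Arntl overlapped between the sets.

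**Figure D3:**
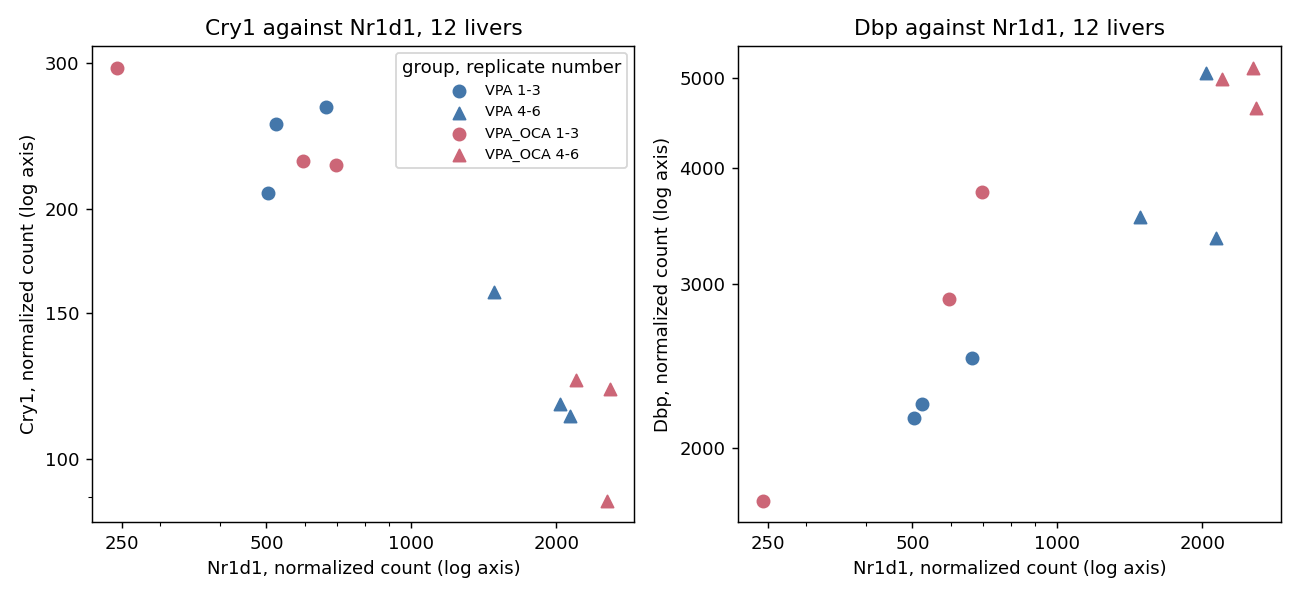
Cry1 (left) and Dbp (right) against Nr1d1 in the 12 livers, as normalized counts on log axes, with colour for the treatment and shape for the replicate number (circles 1 to 3, triangles 4 to 6). The livers fall into 2 clouds by number, with Nr1d1 at 244 to 698.5 or 1486 to 2586, and VPA_OCA replicate 2 lies at the end with the lowest Nr1d1 and Dbp and the highest Cry1.

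Within a set, the order of livers was compared for each pair of genes over the 15 pairs of livers it holds. Nr1d1 and Dbp ordered 14 of 15 pairs alike in livers 1 to 3 and 9 of 15 in livers 4 to 6. Per3 and Dbp ordered 13 and 11 alike, and Arntl and Clock 10 and 15. Cry1 and Nr1d1, which were opposite between the sets, ordered 6 and 5 of 15 alike within them. Per1 and Nr1d2 ordered 3 of 15 alike in livers 1 to 3 and 14 of 15 in livers 4 to 6. Only some pairs among the 10 genes are given here, and they include the most extreme counts. The 15 pairs of livers also share the same few livers, so no result about a gene pair is read from these counts. VPA_OCA replicate 2 was the lowest liver for Nr1d1, Dbp and Npas2 and the highest for Cry1.

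In a list of 8 other transcription factors of the clock, 0 passed for the treatment (1 at an unadjusted p under 0.05, Nfil3, beside 9.55% of all genes), with a median log2 fold change of -0.10, while 1 lay above and 0 below without overlap between the sets, a share near the 10.6% of all genes. Bhlhe40, which encodes the E-box repressor DEC1, averaged 1944 ± 292 normalized counts in livers 1 to 3 and 3387 ± 542 in livers 4 to 6, with no overlap. Its relative Bhlhe41 averaged 16.0 ± 13.6 and 50.03 ± 18.5 and overlapped through VPA_OCA replicate 1. Nfil3, the D-box repressor that opposes DBP, had a log2 fold change of -0.49 by treatment (limma unadjusted p = 0.0187, adjusted p = 0.37).

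**Figure D4:**
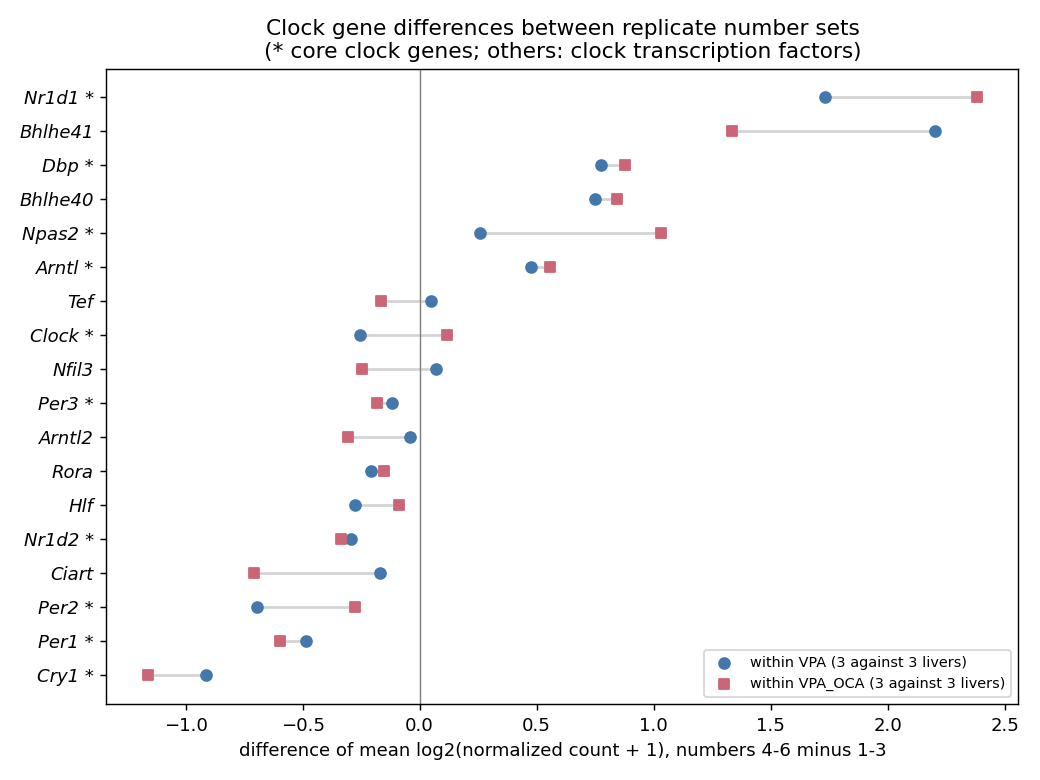
Difference of mean log2(normalized count + 1) between livers numbered 4 to 6 and 1 to 3, within VPA (blue circles) and within VPA_OCA (red squares), for the 10 core clock genes (starred) and 8 other clock transcription factors. Nr1d1 lies highest within VPA_OCA at 2.38 and Cry1 lowest within both treatments at -0.91 and -1.16, while Clock lies on both sides of 0 (-0.26 and 0.12).

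Among 11 partners, kinases and ligases of the repressors, 0 passed for the treatment, beside 0.721% of all genes, and 2 had an unadjusted p under 0.05, beside 9.55%, with a median of -0.01. Those 2 were Btrc, the ubiquitin ligase subunit for PER (0.29, limma adjusted p = 0.35), and Nono, a PER-binding protein (-0.18, limma adjusted p = 0.43). Between the sets, Cry2, the other cryptochrome, differed by 0.42, opposite in sign to Cry1 but with overlap. Ddb1, a ubiquitin ligase subunit, was the 1 gene of the 11 higher without overlap in livers 4 to 6 (3747.5 ± 177 against 3011 ± 165 normalized counts), beside 10.6% of all genes. Among 14 clock-controlled liver outputs, 0 passed (2 at an unadjusted p under 0.05, Pdxk and Avpr1a, beside 9.55% of all genes), with a median of -0.15. Upp2, a uridine phosphorylase, was lower in livers 4 to 6 (8736 ± 2780 against 17620 ± 2829 normalized counts), and so was Nampt, which makes the NAD precursor (1665 ± 266 against 2846 ± 579). These were the 2 of 14 outputs without overlap, beside 10.6% of all genes. Noct, a rhythmic phosphatase of liver, averaged 1245 ± 557 and 2421.5 ± 699 but overlapped.

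Genes of other daily signals were listed beside the clock genes. Of 8 glucocorticoid-induced genes, 0 passed for the treatment, beside 0.721% of all genes (1 at an unadjusted p under 0.05, Fkbp5, beside 9.55%). Of these, 8 of 8 had a negative log2 fold change, with a median of -0.44 against -0.00050 over all genes. Tsc22d3, a glucocorticoid target, differed by -1.02 between the number sets, though with overlap. Of 13 feeding and fasting genes, 0 passed, beside 0.721% of all genes (0 also unadjusted, beside 9.55%), with a median of -0.19. Srebf1, the insulin-responsive regulator of lipid synthesis, averaged 9336 ± 1550 normalized counts in livers 4 to 6 and 4753 ± 1543 in livers 1 to 3. It was the 1 gene of the 13 without overlap, beside 10.6% of all genes. Its target Fasn differed by 2.07 on the log2 scale, as much as Nr1d1 did, but overlapped. Of 9 temperature and heat shock genes, 0 passed (5 at an unadjusted p under 0.05, beside 9.55% of all genes), with a median of -0.33. With the set term 3 passed by limma, beside 2.13% of all genes: Rbm3, a cold-induced RNA-binding protein, was higher in VPA_OCA (0.34, adjusted p = 0.032), and the heat shock genes Hsp90aa1 (-0.47, adjusted p = 0.015) and Hsph1 (-0.51, adjusted p = 0.043) were lower. Rbm3 was also lower in livers 4 to 6 (611 ± 81.0 against 1239 ± 220.3), the 1 gene of the 9 without overlap, beside 10.6% of all genes. These lists were chosen with earlier results of these data known, so nothing is read from their counts beside the shares of all genes. The part of feeding, glucocorticoid and temperature signals in the clock gene values was not tested.

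Summed over each list, markers of other cell types overlapped between the number sets that Nr1d1 and Cry1 separate. Single markers did not all overlap. Csf1r (of 5 macrophage markers), Stab2 (of 5 endothelial), and Reln and Des (of 4 stellate) were higher in every liver numbered 4 to 6. This held for 5.65% of all genes. The other markers of these and the remaining lists overlapped. Mean log2 levels were higher in livers 4 to 6 for 5 of 5 macrophage, 5 of 5 endothelial, 5 of 6 hepatocyte, 3 of 4 stellate and 3 of 4 lymphocyte markers. The same held for 3 of 3 muscle markers past the filter, 2 of 4 cholangiocyte, 2 of 3 adipocyte and 0 of 3 erythroid markers. Over all genes tested the median difference was -0.02. Within VPA_OCA, Pecam1 (-0.01), Clec4g (-0.27) and Cd5l (-0.04) were lower in livers 4 to 6, and the other macrophage and endothelial markers were higher. The 5 macrophage markers, all detected, summed to 3238 to 5842.5 normalized counts in livers 1 to 3 and 4378 to 9017 in livers 4 to 6, and the 5 endothelial markers, all detected, to 1865 to 2588 and 1854 to 3370. Skeletal muscle markers, 3 of 7 past the filter, summed to 11.0 to 17.7 in livers 1 to 3 and 5.27 to 474 in livers 4 to 6, the high values being in VPA replicates 4 and 5. No marker was at 0 in every liver. Their part in the clock gene differences was not tested. After correction for GC content, Nr1d1 differed by 1.86 and Cry1 by -1.02 between the sets, still without overlap. For Clock the difference went from -0.07 to 0.20, a change of sign, and the other clock genes kept theirs. Dbp went from 0.83 to 0.62, Npas2 from 0.65 to 0.41, Per1 from -0.54 to -0.79 and Per2 from -0.49 to -0.67. The ratios between pairs of clock genes were not corrected for GC content. Nr1d1 shares 263 exon bases with Thra on the opposite strand, which averaged 166 and 198 normalized counts in the sets. Dbp shares 539 exon bases with Sphk2 on the opposite strand (747 and 968), and the use of strand in counting is not given in the sources used here, so their reads cannot be told apart there.

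Genes with a pattern like Arntl or Dbp were ranked by Pearson correlation of log2 levels over the 12 livers, among 10865 genes. As the livers divide by number, each correlation is given within the sets of 6, as a description of genes picked for it. For Arntl the 5 nearest were Cyth3 (0.70 in livers 1 to 3 and 0.93 in livers 4 to 6), Fst (0.94 and 0.82), Bod1l (0.85 and 0.86), Pag1 (0.73 and 0.89) and Soat1 (0.71 and 0.83). For Dbp the nearest included Gpr146 (0.93 and 0.81), Ddah1 (0.90 and 0.80), Srebf1 (0.87 and 0.86) and Stradb (0.95 and 0.79). None of the other 9 clock genes could enter these lists, by the rule.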

How the data were processed

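RNA sequencing of livers from 6 VPA and 6 VPA_OCA mice was taken from 1 table of the whole series. The submitters' processing notes name edgeR and the build GRCm38.p5; no aligner and no counting strand is given in the sources used here. The deposited values are normalized counts, a signal per gene and library per the file headers, and FPKM made by the authors. The authors' table also holds p-values, log2 ratios, a GC fraction and a gene length, per the file headers. Values with a decimal comma and an exponent (218 of the per-library values) were divided by 1000, and 26 symbols turned into dates were restored from the gene ID. All 10 clock genes have the same start and end in GENCODE M21.

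The 19006 genes that reached a normalized count of 1 in 6 or more libraries were tested on the scale log2(value + 1). The test was limma's (version 3.58.1, under R 4.3.3), with an intensity trend and group as the term, with Benjamini-Hochberg adjustment over all genes at a threshold of 0.05. The fits were tested on simulated data with known changes. For the treatment test, every simulated gene had the same setting of spread and none differed between the number sets. That simulation therefore does not show how the test behaves on livers that divide by number. Fold changes of low genes such as Npas2 depend on the pseudocount (0.32 for the treatment, and 0.07 with a pseudocount of 0.1). Groups and numbers came from the sample titles, and 0 columns were left unused. The clock genes and the other lists were chosen with earlier results of these data known. Named genes are the 10 clock genes, in each other list those with the smallest treatment p or the largest difference between number sets (up to 4 each), and the 5 genes nearest to Arntl and to Dbp among those with a mean log2 level of at least 5. Alternatives changed the scaling, pseudocount, filter, model, GC correction and libraries used. Some genes of the lists are not reported here.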

Additional observations from a re-analysis of the deposited data

Results flagged for a closer look

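Within a treatment group of 6 livers, 1 liver stood apart from the other 5 in 9 of 98 gene and group combinations checked among the clock genes and their lists. The rule flags about 1 in 20 by chance where values are independent and normally distributed. Here each group mixes both number sets, and genes were partly picked for large differences between them. The 9 are therefore not read as an excess. Among the clock genes this was Per2, where VPA_OCA replicate 3 had 1271 normalized counts and the other VPA_OCA livers had 675 to 882. Cry2, a cryptochrome repressor, was at 552.7 in VPA_OCA replicate 2 against 916 to 1023. Rora, an activator of Arntl, was at 1288 in VPA replicate 1 against 947 to 1035. Of the lipid genes, Fasn was at 81490 in VPA replicate 4 against 7477 to 28470 and at 98770 in VPA_OCA replicate 6 against 5729 to 39290, and Pnpla3 was at 1555 in VPA replicate 4 against 187 to 406. In the same VPA replicate 4, the heat shock gene Hsph1 was at 410.1 against 513 to 566. Mt2, a metallothionein gene, was at 7811 in VPA replicate 6 against 2606 to 3645 and at 7423 in VPA_OCA replicate 1 against 1419 to 2490.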

How the results depend on the processing

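For the treatment, 0 of 10 clock genes passed in all 27 alternatives (25 for Npas2, too low for the others), with the smallest adjusted p at 0.25 (Per3). Arntl, Per1, Per3 and Dbp kept the sign of their fold change in all of them, while Clock and Npas2 changed it in 1 each, Nr1d2 in 3, Per2 and Cry1 in 5 each and Nr1d1 in 7. Over all genes, 137 passed, and 93 to 148 when 1 liver was left out. The count was 404 with a term for the number sets, and 210 with the replicate block. Livers sharing a number deviated together with correlations of 0.16, 0.02, 0.13, 0.04, 0.17 and 0.18, not all over 0.1, and only 1 of the 6 numbers correlated best with itself, so the numbers were not taken as pairs; the block passed 0 of 10 clock genes too. For the difference of the treatment effect between the sets, 2 of all genes passed, 0 to 4 when 1 liver was left out (0 without VPA replicate 2 or 6, 4 without VPA_OCA replicate 2), and 0 with a pseudocount of 5 or with limma without the trend; 0 of 10 clock genes passed in all 17 alternatives. Nr1d1 and Cry1 kept the division of the livers by number in the 17 alternatives run, with differences of 1.85 to 2.16 and -1.12 to -0.96, and a further clock gene divided without VPA replicate 3 (Nr1d2), VPA_OCA replicate 1 (Dbp) or VPA_OCA replicate 4 (Per2). The cause of the moves was not tested. Intervals, from the fit with group as the only term, limit what that fit could show. A 2-fold rise by treatment lay inside them for Nr1d1 and Npas2, and a 2-fold fall for Nr1d1 and Per1. The difference between the number sets counts as spread in these intervals, as for Nr1d1 and Cry1. No interval was computed with a term for the sets.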
